A study of Mus musculus with 8 samples.

Results

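The mitochondrial ribosomal protein genes were examined in CD45-selected cells of the mouse brain after systemic endotoxin. They were taken as every gene whose symbol starts with Mrpl or Mrps followed by a digit, which gave 78 of the 32227 genes in the deposited tables, with 0 pseudogene symbols to leave out. Male C57Bl/6J mice, given in the labels as 5 to 6 months old and in the study's methods as younger, received 1 intraperitoneal injection of LPS at 15000000 EU/kg or of saline, and their brains were taken 24 h later without clearing the blood. Brains were dissociated enzymatically with actinomycin D, triptolide and anisomycin, inhibitors of transcription and translation labelled "Inhibitors", or with their solvent DMSO. CD45+ cells, that is leukocytes and microglia, were enriched with magnetic beads and captured by PIPseq, a droplet-like single-cell method that counts unique molecular identifiers (UMIs). Each combination of injection and dissociation had 2 libraries, so that 4 LPS libraries were set against 4 saline libraries. All groups shared the strain, the dissociation and the CD45 selection, and no group carried a genetic change.

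Mitochondria keep their own ribosome, the mitoribosome, which translates the few membrane proteins of the respiratory chain that are still encoded in mitochondrial DNA. Its ribosomal RNAs come from that DNA, whereas every one of its proteins is encoded in the nucleus, made in the cytosol and imported, so that building it needs both genomes. Many of its proteins descend from bacterial ribosomal proteins and others have no bacterial relative. By these roles the 78 genes comprised 30 large-subunit proteins with a bacterial counterpart, 21 large-subunit proteins particular to mitochondria, 16 small-subunit proteins with a bacterial counterpart and 10 small-subunit proteins particular to mitochondria. The remaining 1, Mrps36, encodes a subunit of the 2-oxoglutarate dehydrogenase complex in spite of its name. Mrps30 and Mrps18a, also against their names, encode proteins of the large subunit and were counted there. Mrps18a and Mrps18b, paralogs of the S18 counterpart Mrps18c that take other places in the ribosome, were counted as particular to mitochondria. Mrpl55 was counted as a counterpart of bacterial L31, an assignment that naming schemes do not share.

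The stretches before the transcription start of 4 genes are printed as examples, and no result below rests on them. Mrpl52 was called higher with LPS in every class tested, and Mrpl2 in 6 classes, as were Mrpl11, Mrpl54, Mrpl57 and Mrps18c. Mrpl33 differed most between microglia and monocytes. Mrps6 was called lower in 4 and higher in 1 of the 7 classes where it was tested. Sequences and positions are those of RefSeq on GRCm38.p6, 5′ to 3′ on the strand of the gene. Only bases outside any annotated exon are printed, and capitals mark exact matches to a motif on either strand. The printed part lies at chr14:54426709-54426908 (plus strand) for Mrpl52, chr17:46646023-46646220 (plus strand) for Mrpl2, chr5:31613751-31613938 (plus strand) for Mrpl33 and chr16:92058136-92058269 (plus strand) for Mrps6.
Mrpl52: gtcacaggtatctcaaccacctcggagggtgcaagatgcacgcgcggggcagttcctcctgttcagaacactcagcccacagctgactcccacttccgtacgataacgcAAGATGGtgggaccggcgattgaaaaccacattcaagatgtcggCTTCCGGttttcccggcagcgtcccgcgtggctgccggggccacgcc
Mrpl2: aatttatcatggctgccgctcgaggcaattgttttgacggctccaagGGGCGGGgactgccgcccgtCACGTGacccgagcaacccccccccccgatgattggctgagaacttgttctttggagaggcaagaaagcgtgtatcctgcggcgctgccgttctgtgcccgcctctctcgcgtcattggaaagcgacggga
Mrpl33: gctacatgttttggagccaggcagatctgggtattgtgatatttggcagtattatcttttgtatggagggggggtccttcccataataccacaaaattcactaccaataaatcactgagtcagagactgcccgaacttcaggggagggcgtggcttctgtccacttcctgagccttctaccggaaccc
Mrps6: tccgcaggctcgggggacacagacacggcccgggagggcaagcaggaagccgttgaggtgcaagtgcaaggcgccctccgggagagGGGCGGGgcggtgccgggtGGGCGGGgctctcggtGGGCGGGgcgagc

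In the Mrpl52 stretch the capitals mark 1 YY1 motif (AAGATGG) and 1 ETS motif (CCGGAAG, read on the other strand). The Mrpl2 stretch holds 1 GC box (GGGCGGG) and 1 E-box (CACGTG), the Mrps6 stretch holds 3 GC boxes, and the Mrpl33 stretch holds none of the motifs searched. The stretches of Mrpl55, Mrpl12, Mrpl57, Mrpl32, Mrpl35 and Mrpl45, taken in the same way and not printed, hold none either. RefSeq promoter windows were matched for 69 of the 78 genes, which gave 75 windows. In the 250 bases before the start, the ETS motif was present in 24% of these windows and in 6.91% of all 32851 windows. The NRF1 motif (GCATGCGC), named after a nuclear regulator of mitochondrial genes, was present in 10.7% against 2.26%, and the GC box in 42.7% against 23.4%. The E-box was found in 9.33% against 6.02%, the YY1 motif in 8% against 4.49% and the kappaB motif in 0% against 0.356%. NRF1, YY1 and the other motifs were searched on both strands, and a match says only that these letters are present.

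The 8 libraries held 90352359 to 141182123 UMIs and 12039 to 17364 cells each within the limits of 800 to 44999 UMIs, 250 to 6499 genes and under 5% mitochondrial UMIs. The 78 genes took 151664 to 592363 UMIs per library. Of 119053 cells, 108939 were placed in 1 of 17 classes by marker genes, 8674 met no class and 1440 carried markers of more than 1 class and were left out, and no doublet caller was run. Barcodes with 1 to 99 UMIs, which hold mostly free RNA, carried 15.5% to 33.7% of the UMIs, and any pair of libraries shared 0 to 25 barcodes. Ptprc, which encodes CD45, had a UMI in 32.8% to 47.4% of microglia (median 2228 to 5515 UMIs per cell) and in 5.26% to 15.1% of endothelial cells (2659 to 3897), a class that does not make CD45. UMIs were summed per library and class, and 10 classes had at least 20 cells in at least 3 libraries on each side and were tested. Values per library are given as CPM, counts scaled by TMM to a common library total, in the order DMSO 1, DMSO 2, inhibitors 1, inhibitors 2. A gene was called at an adjusted p under 0.05 in the quasi-likelihood test of edgeR, after Benjamini-Hochberg adjustment over all genes of the class, and values after ± are standard errors unless named as SD.

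LPS raised the mitochondrial ribosomal protein genes almost as a block in microglia, the resident macrophage-like cells of brain tissue. Of the 78 genes, 77 were called higher and 0 lower, where 29.2% of all 21132 genes tested were called higher and 33.7% lower. The median log2 fold change of the 78 was 1.43, a 2.70-fold rise, and the range was 0.10 to 2.50, whereas the median of all genes tested was -0.20. All 4 LPS libraries lay above all 4 saline libraries for 75 of the 78 genes, where 27.4% of all genes did so. Of the 78, 11 were called higher by more than the study's limit of 2 on the log2 scale, where 949 of all 21132 genes were. DESeq2 also called 77 of the 78. Summed over the 78 genes, their share of the microglial UMIs was 33.3, 37.5, 35.5 and 38.5 per 10000 in the saline libraries and 56.6, 64.6, 64.4 and 64.6 per 10000 in the LPS libraries. The saline mean was 36.2 ± 2.32 (SD, n = 4) and the LPS mean 62.6 ± 3.98 (SD, n = 4), and the 2 sets of libraries did not overlap.

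**Figure D1:**
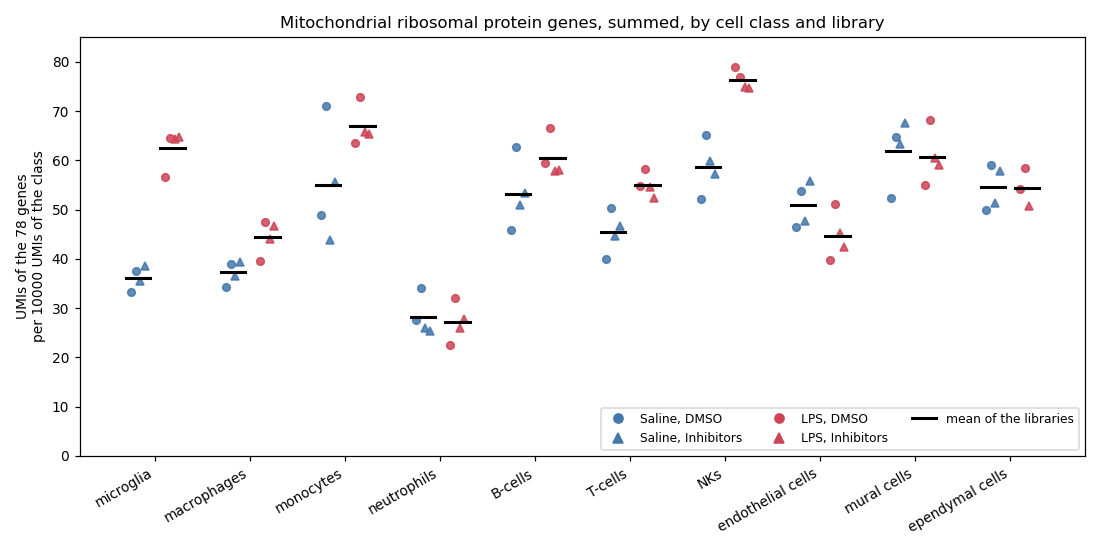
UMIs of the 78 genes per 10000 UMIs of a class, for each class and library (blue, saline, red, LPS, circles, DMSO, triangles, inhibitors, bars, mean of the libraries). Microglia moved from a mean of 36.2 to 62.6 per 10000, while neutrophils stayed at 28.3 and 27.1 and endothelial cells went from 50.9 to 44.6 with overlapping libraries.

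Several other measures of the microglia moved with LPS, and their part in the result was not tested. The median UMIs per microglial cell were 2228 to 3213 in saline and 4738 to 5515 in LPS libraries, and the median UMIs of the 78 genes per cell were 8 to 11 and 28 to 35. Mitochondrial transcripts took 1.43% to 1.61% of the UMIs in saline and 2.46% to 2.94% in LPS libraries, and the share of free RNA was estimated at 7% to 9.15% and 3.66% to 4.47%. The 12 microglial markers, of which none was at 0 in every library, fell in sum from 479 to 492 per 10000 UMIs to 94.5 to 109, and neutrophil markers went from 0.245 to 2.31 per 10000 to 3.88 to 5.32. Choroid plexus markers in the same cells went from 24.1 to 111 per 10000 to 4.66 to 8.37 and B-cell markers from 5.47 to 6.45 to 1.11 to 1.28. With library totals in place of TMM scaling the median of all genes moved to -0.96 and that of the members to 0.67. There 60 genes were called higher and 2 lower in microglia, and calls over all genes were not counted. The greatest rise of a member was then 1.76 for Mrpl54, under the study's limit of 2. The members' median was 1.64 above that of all genes on the log2 scale there, against 1.63 with TMM. Each of the 78 lay above the median of all genes in both. A change of scaling moves all genes of a library alike, so this distance was nearly fixed by construction and adds no support.

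The steepest rise in microglia was that of Mrpl54, a large-subunit protein without a bacterial counterpart, which measured 17.9, 33.9, 24.8 and 35.8 CPM in the saline libraries and 129, 179.9, 147 and 176 CPM in the LPS libraries. Its log2 fold change was 2.50 ± 0.20, adjusted p = 3.75e-07. Mrpl33, counterpart of the bacterial protein L33, measured 49.3, 65.7, 54.2 and 71.1 CPM in saline and 302, 339, 332 and 349 CPM in LPS libraries, a log2 fold change of 2.46 ± 0.14, adjusted p = 1.64e-08. For both genes every LPS library stood several times above every saline library, with no overlap. In the small subunit, Mrps10 rose from 7.598, 10.5, 8.302 and 11.1 CPM to 37.1, 52.5, 44.6 and 57.8 CPM (log2 fold change 2.36 ± 0.16, adjusted p = 6.62e-08). Mrps18b, 1 of 3 paralogs of the S18 family, rose from 21.3, 28.2, 23.2 and 28.1 CPM to 117, 115, 124 and 145 CPM (log2 fold change 2.32 ± 0.13, adjusted p = 1.19e-08). These small-subunit genes lay close behind Mrpl54 and Mrpl33 in size, again with the groups fully apart.

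Mrpl52, a large-subunit protein particular to mitochondria, measured 135, 189, 153 and 219.9 CPM in saline and 703, 831, 815 and 953 CPM in LPS libraries, a log2 fold change of 2.24 ± 0.17, adjusted p = 1.80e-07. Mrpl12, the stalk protein to which translation factors bind, rose from 36.4, 52.7, 42.5 and 57.4 CPM to 187, 243, 213 and 263 CPM, a log2 fold change of 2.26 ± 0.16, adjusted p = 1.09e-07. Mrpl2, a core protein near the catalytic centre, rose from 21.9, 30.03, 22.3 and 30.02 CPM to 89.99, 116, 124 and 152 CPM, a log2 fold change of 2.20 ± 0.16, adjusted p = 1.43e-07. In each of these 3 genes the LPS libraries lay above the saline libraries without overlap. Mrpl55 and Mrpl57 rose by 2.27 ± 0.15 and 2.22 ± 0.17 on the log2 scale, and Mrpl32 and Mrpl35, both with bacterial counterparts, by 2.04 ± 0.12 and 2.01 ± 0.14. Mrpl45, which faces the inner membrane at the exit of the tunnel, rose by 1.90 ± 0.13. In each of these 5 genes all LPS libraries exceeded all saline libraries.

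The weakest members formed a short tail. Mrps6, counterpart of bacterial S6, was the single member not called in microglia, at 18.8, 18.9, 19.1 and 22.2 CPM in saline and 19.4, 19.2, 20.7 and 25.5 CPM in LPS libraries (log2 fold change 0.10 ± 0.10, adjusted p = 0.402). Its 2 groups overlapped almost completely. Mrpl49 measured 18.7, 23.4, 20.6 and 26.6 CPM and 23.4, 31.4, 29.4 and 31.2 CPM (log2 fold change 0.37 ± 0.12, adjusted p = 0.0197), and Mrpl14, a core protein of the subunit interface, measured 29.3, 43.8, 31.8 and 45.5 CPM and 41.95, 65.95, 49.03 and 46.5 CPM (log2 fold change 0.44 ± 0.17, adjusted p = 0.0418). Both were called higher although their libraries overlapped, and both calls were close to the threshold, holding in 12 of 21 alternatives for Mrpl49 (highest adjusted p 0.155) and in 10 of 21 for Mrpl14 (highest adjusted p 0.174). Mrps30 rose from 20.4, 20.7, 21.4 and 20.9 CPM to 24.2, 25.9, 31.2 and 39.4 CPM without overlap, a log2 fold change of 0.51 ± 0.12, adjusted p = 0.00218. With library totals in place of TMM, Mrps6 was called lower (log2 fold change -0.66, adjusted p = 9.02e-05), as was Mrpl49 (-0.38, adjusted p = 0.00995), and Mrpl14 and Mrps30 turned to -0.30 (adjusted p = 0.0860) and -0.25 (adjusted p = 0.0740). Mrpl48, Mrpl24, Mrpl43, Mrpl44, Mrpl10 and Mrps15 also turned below 0 there, from -0.14 to -0.01, and none of these was called.

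Exons of Mrps6 on chromosome 16 overlap those of Slc5a3, a myo-inositol transporter gene, on the same strand, so that reads of the 2 genes could be assigned to either. In microglia the log2 fold change of Slc5a3 was -2.18 ± 0.19 (adjusted p = 7.94e-07). In ependymal cells its log2 fold change was 0.98 ± 0.39 (adjusted p = 0.0663), and it passed the filter on low counts in no other class tested. Over all members, 8 had an exon overlapping another gene on the same strand, 28 on the other strand and 45 had no such overlap in the GENCODE annotation of GRCm38. Mrpl33, which overlaps Gm43809, and Mrps18c, which overlaps Gm43511, are among the 8. How shared reads were counted is not given in the sources used here.

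**Figure D2:**
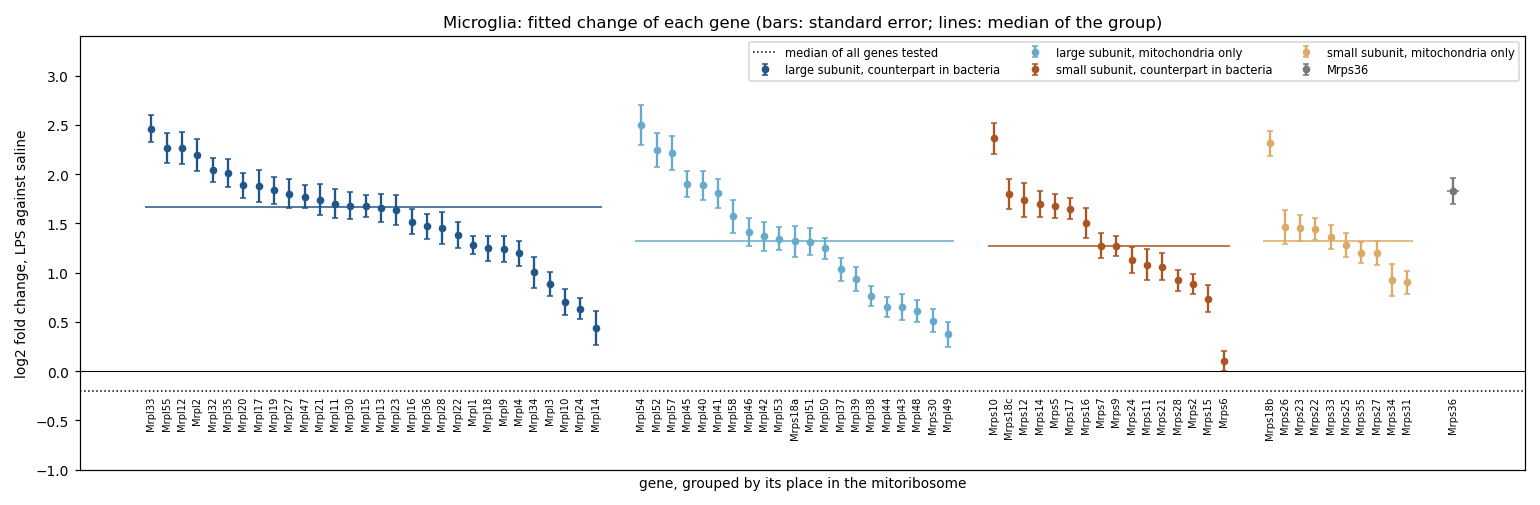
Log2 fold change of LPS against saline in microglia (vertical axis) for each of the 78 genes by role in the ribosome, with the SE as bars, a line at the median of each role and a dotted line at the median of all genes tested. The medians of the 4 ribosomal roles lie between 1.27 and 1.67, Mrps36 stands by itself at 1.82, and Mrps6 and Mrpl49 mark the low end at 0.10 and 0.37.

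The rise in microglia ran through every structural group. All 30 large-subunit genes with a bacterial counterpart were called higher, with a median log2 fold change of 1.67, and all 21 large-subunit genes particular to mitochondria, with a median of 1.32. With Mrpl55 counted among the latter the groups held 29 and 22 genes, all called higher, with medians of 1.66 and 1.33. In the small subunit, 15 of 16 genes with a bacterial counterpart were called higher (median 1.27) and 10 of 10 particular to mitochondria (median 1.32). Mrps36, the subunit of the 2-oxoglutarate dehydrogenase complex, rose from 23.2, 28.7, 24.8 and 32.5 CPM to 90.3, 101, 84.2 and 110.3 CPM (log2 fold change 1.82 ± 0.13, adjusted p = 1.34e-07). The 3 S18 paralogs rose by 1.32 for Mrps18a, which sits in the large subunit, 2.32 for Mrps18b and 1.80 for Mrps18c. By transcript length the members' medians were 1.43 (24 genes) below 1000 bases, 1.27 (29 genes) from 1000 to 2000, 1.54 (16 genes) from 2000 to 4000 and 1.65 (9 genes) from 4000 bases. The medians of the other coding genes in the same length ranges were 0.58, 0.23, -0.04 and -0.35.

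Macrophages, the border-associated and perivascular phagocytes marked by Mrc1, Pf4 and others, showed a smaller and less uniform rise. Of the 78 genes, 39 were called higher and 2 lower, where 24.3% of 9850 genes were called higher and 24.8% lower, and DESeq2 called 36 members in all. The median log2 fold change of the members was 0.53 with a range of -1.05 to 1.93, and that of all genes was -0.04. The summed share was 34.2, 39.0, 36.6 and 39.4 per 10000 UMIs in saline and 39.6, 47.4, 44.1 and 46.6 per 10000 in LPS libraries, so that the lowest LPS library lay just above the highest saline library. By role, 16 of 30 large-subunit genes with a bacterial counterpart were called higher and 1 lower, 10 of 21 particular to mitochondria higher, 8 of 16 small-subunit counterparts higher and 1 lower, and 4 of 10 small-subunit genes particular to mitochondria higher. With library totals in place of TMM the calls were 21 higher and 10 lower, without a count over all genes. There the median of all genes was -0.39 and that of the members 0.17. Over all 4 LPS libraries the markers of macrophages themselves summed to 56.5 to 60.6 per 10000 UMIs against 135 to 174 in saline and those of microglia to 13.6 to 17.9 against 97.4 to 110, and the part of this in the result was not tested.

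Mrpl52 led the rises in macrophages, from 114, 176, 146 and 208 CPM to 531, 692, 557 and 659 CPM (log2 fold change 1.93 ± 0.18, adjusted p = 4.32e-07). Mrps18b rose from 20.7, 19.6, 11.8 and 16.4 CPM to 59.2, 48.1, 51.3 and 63.2 CPM (log2 fold change 1.72 ± 0.20, adjusted p = 3.62e-06). Mrpl33 rose from 88.4, 121, 91.4 and 127 CPM to 235, 348, 293 and 284 CPM (log2 fold change 1.44 ± 0.17, adjusted p = 4.55e-06). In all 3 genes the LPS libraries stood clear of the saline libraries. Mrpl57, Mrps10 and Mrpl55 rose by 1.54 ± 0.19, 1.53 ± 0.23 and 1.42 ± 0.25 on the log2 scale, and among the paralogs Mrps18c rose by 1.14 ± 0.17 and Mrps18a by 0.60 ± 0.18. Mrps6 went the other way, from 27.2, 29.8, 26.5 and 21.3 CPM to 9.396, 8.58, 11.3 and 19.96 CPM (log2 fold change -1.05 ± 0.27, adjusted p = 0.00413), with every LPS library below every saline library, a call lost with inhibitor libraries only (-0.63, adjusted p = 0.172). Mrpl24, a core large-subunit protein, fell from 72.8, 88.5, 75.3 and 78.3 CPM to 50.7, 72.1, 56.5 and 55.5 CPM (log2 fold change -0.44 ± 0.15, adjusted p = 0.0263), a call that DESeq2 did not make (adjusted p = 0.0901) and that was lost without any 1 of 6 libraries (adjusted p 0.0527 to 0.126). The Mrps18a rise was lost in 4 of 21 alternatives, without LPS inhibitors 2 (adjusted p = 0.0556), with DMSO libraries only (0.0996), with inhibitor libraries only (0.112) and with library totals (0.24, adjusted p = 0.248), and 8 of the 11 named calls held under every alternative run.

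In monocytes, blood-derived myeloid cells marked by Ly6c2, Ccr2 and others, 30 of the 78 genes were called higher and 1 lower, where 15.1% of 11877 genes were called higher and 15.2% lower, and DESeq2 called 30 members in all. The members had a median log2 fold change of 0.47 (range -0.86 to 1.50), and all genes one of -0.04. Mrpl52 rose from 81.1, 108, 157 and 192 CPM to 293, 508, 310.3 and 375 CPM (log2 fold change 1.50 ± 0.27, adjusted p = 0.00104). Mrpl27, a protein next to the catalytic centre, rose from 23.9, 41.7, 24.6 and 36.4 CPM to 87.2, 78.4, 59.6 and 66.2 CPM (log2 fold change 1.17 ± 0.20, adjusted p = 9.10e-04). Both genes kept the groups apart, although the saline libraries spread more widely than in microglia. Mrpl47, Mrpl46, Mrps18c and Mrps18b rose by 1.29 ± 0.27, 1.20 ± 0.21, 1.17 ± 0.27 and 1.11 ± 0.19 on the log2 scale. Mrps6 fell from 23.9, 23.4, 19.3 and 22.4 CPM to 10.6, 13.01, 11.6 and 13.5 CPM without overlap (log2 fold change -0.86 ± 0.23, adjusted p = 0.0128). Without saline DMSO 2 the adjusted p for this fall was 0.0524, with no filter on low counts 0.0668, with DMSO libraries only 0.124 and with inhibitor libraries only 0.1797.

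Mrpl33 behaved differently in monocytes, at 298, 566, 374 and 518 CPM in saline and 260.0, 459, 227 and 337 CPM in LPS libraries, a log2 fold change of -0.47 ± 0.26, adjusted p = 0.197 that was not called. Within each pair of the same number and dissociation its LPS library was the lower. The summed share of the 78 genes in monocytes was 49.0, 71.1, 43.9 and 55.7 per 10000 UMIs in saline and 63.5, 72.9, 65.8 and 65.4 per 10000 in LPS libraries. Saline DMSO 2 lay inside the LPS range and the other saline libraries below it, and in 4 of 4 pairs of the same number and dissociation the LPS library was the higher. In that class neutrophil markers summed to 1.46 to 42.8 per 10000 UMIs in saline and 2.75 to 6.38 in LPS libraries and microglial markers to 25.5 to 57.6 and 8.42 to 11.3, whose part in the result was not tested. The monocyte libraries rested on 960 saline and 4077 LPS cells. Leaving out each library in turn gave 21 to 46 calls among the members, and DMSO libraries only gave far fewer, as listed at the end. Of the 7 named calls, 2 held under every alternative run.

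The LPS change was then compared between classes in 1 fit over microglia, macrophages, monocytes and neutrophils with the library as a block, on 11680 genes. The differences are signed, so that a lower change can be a smaller rise or a fall. In macrophages the LPS change of 34 of the 78 genes was called lower than in microglia and that of 0 higher. Of all genes 13.2% were called lower and 15.4% higher. At an unadjusted p under 0.05, 0 genes had a higher change in macrophages. The members' median difference was -0.54 on the log2 scale, against 0.08 over all genes. In monocytes the change of 47 genes was called lower and of 0 higher (background 18.5% lower and 22.7% higher). The median difference was -0.60 against 0.11 over all genes, and 1 gene had a higher change at an unadjusted p under 0.05. With library totals in place of TMM the monocyte calls were 22 lower and 3 higher. In neutrophils 58 of the 78 genes passed the filter on low counts by themselves, and the other members entered through the other classes. There 36 genes had a lower change and 0 a higher one (background 13.6% lower and 20.2% higher). The median difference was -0.89 against 0.16 over all genes, and 0 had a higher change at an unadjusted p under 0.05. Of the 36, 33 had passed the filter in neutrophils. The 36 include Mrps28, which was itself called lower with LPS in neutrophils, at -1.41. Without saline DMSO 2 the neutrophil count was 22.

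**Figure D3:**
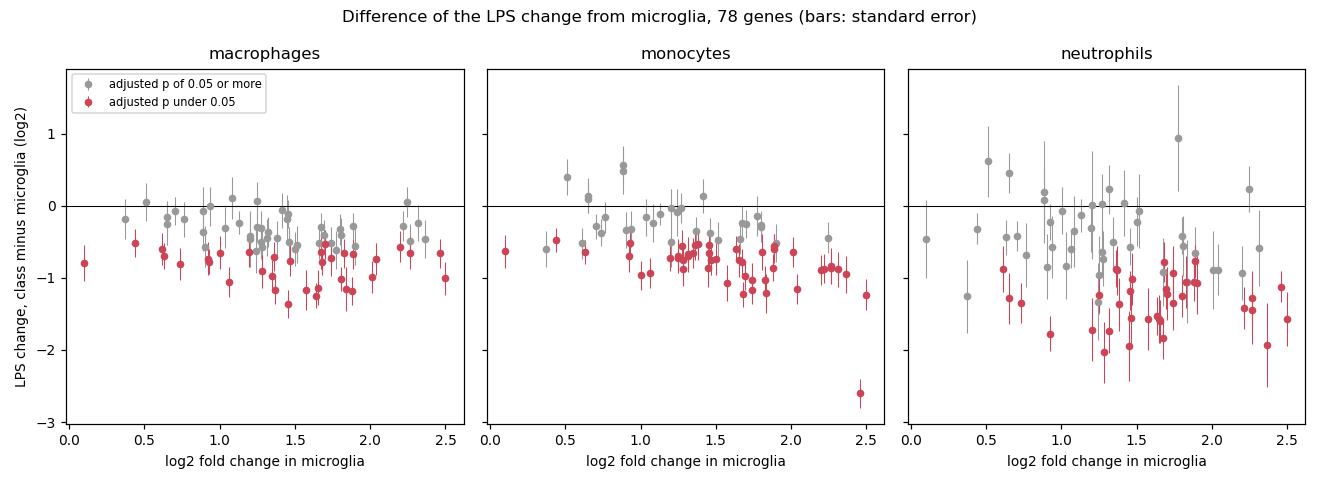
Difference of the LPS change from that of microglia (vertical axis, log2, bars SE) against the LPS change in microglia (horizontal axis, log2) for each member in macrophages, monocytes and neutrophils, with adjusted p under 0.05 in red. Most points lie under 0 in all 3 panels, with Mrpl33 the lowest in monocytes at -2.60.

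The gene that differed most between microglia and monocytes was Mrpl33, whose LPS change in monocytes minus that in microglia was -2.60 ± 0.20 (adjusted p = 1.22e-12) on the log2 scale. In saline libraries its level in monocytes was already 2.39 ± 0.15 (adjusted p = 2.98e-16) above that in microglia. Mrpl54, Mrpl30 and Mrpl19, all of the large subunit, differed by -1.23 ± 0.21 (adjusted p = 1.85e-05), -1.23 ± 0.18 (adjusted p = 7.69e-07) and -1.21 ± 0.27 (adjusted p = 4.61e-04). In macrophages the greatest differences were those of Mrpl28 at -1.36 ± 0.19 (adjusted p = 8.95e-07), Mrpl23 at -1.25 ± 0.17 (adjusted p = 8.53e-07) and Mrpl17 at -1.18 ± 0.19 (adjusted p = 1.24e-05). In neutrophils the greatest difference was that of Mrps25 at -2.03 ± 0.43 (adjusted p = 2.69e-04), and Mrpl15 and Mrps28 were at -1.84 ± 0.28 (adjusted p = 3.61e-06) and -1.78 ± 0.24 (adjusted p = 4.97e-07). Mrps22 and Mrps10, at -1.94 and -1.93, did not pass the filter on low counts in neutrophils and entered the fit only through the other classes.

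Levels in saline libraries were compared between the myeloid classes in the same fit, and most called shares of the members were near or below those of all genes. In macrophages 8 of the 78 genes (10.3%) were called higher than in microglia and 14 (17.9%) lower (background 17.8% higher and 24.3% lower), and scaling by DESeq2's size factors gave 8 and 8. Mrpl28 was higher by 1.06 ± 0.13 (adjusted p = 9.36e-09) on the log2 scale and Mrps11 lower at -1.11 ± 0.19 (adjusted p = 1.06e-05). In monocytes 22 genes (28.2%) were higher and 10 (12.8%) lower (background 28.0% higher and 33.2% lower), with 28 and 7 under DESeq2's size factors and 31 and 7 with library totals. Mrps28, counterpart of bacterial S1, was higher in monocytes by 2.04 ± 0.16 (adjusted p = 2.84e-13) and Mrpl52 lower at -0.84 ± 0.16 (adjusted p = 2.45e-05). In neutrophils 9 genes (11.5%) were higher and 35 (44.9%) lower (background 24.7% higher and 34.5% lower), with 12 and 29 under DESeq2's size factors. Of the 35 lower genes, 24 had passed the filter on low counts in neutrophils, which Mrpl47 had not. Mrpl33 was higher in neutrophils by 1.75 ± 0.16 (adjusted p = 2.30e-11), while Mrpl47 and Mrpl52 were lower at -2.90 ± 0.53 (adjusted p = 1.67e-05) and -2.83 ± 0.24 (adjusted p = 2.13e-12).

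Neutrophils, short-lived granulocytes with few mitochondria, showed little change in sum. The 78 genes took 27.7, 34.0, 25.9 and 25.4 per 10000 UMIs in saline and 22.4, 32.0, 26.0 and 27.8 per 10000 in LPS libraries, with overlap. Of the 58 genes that passed the filter on low counts, 3 were called higher and 3 lower, where 12.6% of 7047 genes were called higher and 12.4% lower, and the counts with the replicate number as a block were 7 and 3. DESeq2 called 3, and library totals in place of TMM gave 1 higher and 4 lower. Mrpl52 rose from 24.96, 18.5, 61.5 and 34.6 CPM to 84.6, 174, 128 and 91.2 CPM (log2 fold change 1.94 ± 0.36, adjusted p = 0.00105). Mrps28 fell from 456, 368, 408 and 177 CPM to 142, 115, 122 and 142 CPM (log2 fold change -1.41 ± 0.27, adjusted p = 0.0014). Both changes left the groups apart, in opposite directions. Mrps18a and Mrps18c rose by 1.15 ± 0.39 and 0.96 ± 0.31, and Mrps15 and Mrpl44, an RNase III-like protein of the large subunit, changed by -1.10 ± 0.36 and -1.09 ± 0.35 on the log2 scale, both called lower. Monocyte markers in the neutrophil class summed to 17.4 to 49.8 per 10000 UMIs in saline and 52.3 to 74.4 in LPS libraries, and their part was not tested. None of the 6 neutrophil calls held under every alternative run.

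In the lymphocyte classes few members were called, all of them higher, and the counts in T-cells, B-cells and NKs depended on the setting. In T-cells 14 of 73 genes tested (19.2%) were called higher and 0 lower (background 9.64% and 9.50% of 6359 genes). Their median log2 fold change was 0.43 against -0.02 over all genes. DESeq2 called only 3 of the 73 there, against 883 of all 6359 genes in either direction, and library totals in place of TMM gave 1 member. In B-cells 7 of 69 (10.1%) were called higher and 0 lower (background 8.27% and 7.44% of 5188 genes), with a median of 0.38. DESeq2 called 4 of the 69, against 652 of all 5188 genes. Library totals gave 3 higher and 1 lower in B-cells. In NKs 3 of 53 (5.66%) were called higher and 0 lower (background 8.33% and 8.95% of 3195 genes), with a median of 0.31. DESeq2 called 3 of the 53, against 385 of all 3195 genes. The T-cell share was 39.9, 50.2, 44.6 and 46.6 per 10000 UMIs in saline and 54.9, 58.3, 54.5 and 52.3 in LPS libraries, and that of NKs 52.2, 65.2, 59.9 and 57.2 in saline and 78.9, 76.9, 74.9 and 74.6 in LPS libraries. Neither class overlapped between the treatments, whereas B-cells, with 195 LPS cells, did, although the LPS library was the higher in 4 of 4 pairs of the same number and dissociation. Markers moved in these classes too, and their part was not tested. NK markers in NKs summed to 125 to 265 per 10000 UMIs in saline and 328 to 449 in LPS libraries, and monocyte markers in NKs to 18.9 to 28.4 and 7.62 to 11.2. In T-cells microglial markers summed to 41.7 to 90.7 and 14.2 to 31.2 and monocyte markers to 20.9 to 23.96 and 7.91 to 10.6. In B-cells choroid plexus markers summed to 19.1 to 77.7 and 5.17 to 17.3. In B-cells the lowest LPS library was at 57.7 and the highest saline library at 62.8 per 10000.

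Mrpl52 rose in T-cells from 169.6, 239, 269 and 374 CPM to 540.0, 475, 475 and 630.2 CPM (log2 fold change 1.04 ± 0.22, adjusted p = 0.00154), and in NKs from 223, 423, 372 and 374 CPM to 1065, 821, 911 and 1031 CPM (log2 fold change 1.46 ± 0.21, adjusted p = 2.89e-04). In B-cells it rose from 162, 248, 241 and 285 CPM to 399, 597, 552 and 486 CPM (log2 fold change 1.10 ± 0.24, adjusted p = 0.002). Its saline and LPS libraries did not overlap in any of the 3 lymphocyte classes. Mrpl11, which forms the base of the stalk, rose by 1.56 ± 0.33 in NKs, 0.88 ± 0.29 in B-cells and 0.85 ± 0.28 in T-cells on the log2 scale. Mrpl2 rose by 1.19 ± 0.33 in B-cells and 1.05 ± 0.35 in T-cells. Mrpl58, a peptidyl-tRNA hydrolase built into the mitoribosome, rose by 1.11 ± 0.34 in B-cells, with 24.4, 50.3, 27.5 and 41.5 CPM in saline and 53.1, 114, 81.4 and 88.3 CPM in LPS libraries. Mrpl57 and Mrpl12 rose by 0.92 ± 0.25 and 0.87 ± 0.27 in B-cells, Mrpl55, Mrpl19 and Mrpl45 by 1.05 ± 0.30, 1.05 ± 0.36 and 1.03 ± 0.33 in T-cells, and Mrps18c by 0.98 ± 0.25 in NKs. Over the libraries left out in turn, B-cells had 2 to 8 calls, T-cells 1 to 14 and NKs 2 to 5. Of the named calls, 0 of 6 in B-cells, 0 of 7 in T-cells and 0 of 3 in NKs held under every alternative run.

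In endothelial cells, vascular cells that carry over into the CD45 selection, members were called in both directions and at no greater share than all genes. Of the 78 genes, 9 (11.5%) were called higher and 15 (19.2%) lower, where 20.7% of 10448 genes were called higher and 21.9% lower, with a median log2 fold change of -0.03 against -0.04 over all genes. DESeq2 called 16 in all, and library totals gave 5 higher and 19 lower. The summed share was 46.5, 53.8, 47.6 and 55.8 per 10000 UMIs in saline and 39.8, 51.1, 45.2 and 42.3 in LPS libraries, with overlap, although within each of the 4 pairs of the same number and dissociation the LPS library was the lower. Mrpl33 rose from 152, 205, 170.4 and 211 CPM to 506, 438, 434 and 424 CPM (log2 fold change 1.29 ± 0.16, adjusted p = 9.43e-06). Mrpl14 fell from 72.6, 117, 64.5 and 126 CPM to 33.3, 48.8, 33.4 and 21.04 CPM (log2 fold change -1.48 ± 0.27, adjusted p = 3.66e-04). Both left the groups apart, and Mrpl14, among the weakest risers of microglia, was the strongest fall here. Other falls were those of Mrpl49 at -1.27 ± 0.26, Mrpl34 at -1.26 ± 0.22, Mrpl42 at -1.14 ± 0.25, Mrps21 at -1.01 ± 0.19 and Mrps36 at -0.99 ± 0.22 on the log2 scale. Mrps18b, Mrpl52, Mrpl54, Mrpl35 and Mrpl2 rose by 1.29 ± 0.23, 1.06 ± 0.17, 0.88 ± 0.25, 0.86 ± 0.23 and 0.80 ± 0.28, of which the Mrpl2 call was lost in 8 of 21 alternatives, without any 1 of 4 libraries (adjusted p 0.0705 to 0.0955), with free RNA subtracted (0.0506), library totals (0.0814), DMSO libraries only (0.0562) and inhibitor libraries only (0.50, adjusted p = 0.277). Of the 12 named endothelial calls 7 held under every alternative run, and Mrpl35 was lost with inhibitor libraries only (adjusted p = 0.139) and Mrpl54, Mrps36 and Mrpl49 with DMSO libraries only (adjusted p 0.0737 to 0.099). In this class the markers of endothelial cells summed to 246 to 269 per 10000 UMIs in saline and 153 to 168 in LPS libraries and those of mural cells to 15.9 to 28.0 and 2.57 to 7.96. Erythrocyte markers in the class varied widely between libraries, over 1.82 to 299 per 10000 UMIs in saline and 6.33 to 297 in LPS libraries. Mitochondrial transcripts took 2.45% to 2.90% of the endothelial UMIs in saline and 1.15% to 1.65% in LPS libraries. The part of these moves and of the erythrocyte markers in the result was not tested.

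In mural cells, the contractile cells around vessels, 39 of the 78 genes were tested, and 3 were called higher and 1 lower (background 11.8% and 11.6% of 2687 genes). DESeq2 called 1, and with a mitochondrial limit of 10% the calls were 2 higher and 8 lower. Mrpl54 rose by 1.32 ± 0.44, with 48.4, 0, 51.3 and 106 CPM in saline and 106, 131, 129 and 187 CPM in LPS libraries. With the replicate block its adjusted p was 0.0506. Mrpl33 and Mrpl52 rose by 1.00 ± 0.25 and 0.77 ± 0.24. Mrps6 fell from 250.1, 168, 171 and 95.6 CPM to 74.1, 49.2, 77.7 and 78.7 CPM (log2 fold change -1.29 ± 0.36, adjusted p = 0.0135), with all LPS libraries below all saline libraries. Fibroblast markers in mural cells summed to 15.5 to 25.3 per 10000 UMIs in saline and 34.4 to 64.7 in LPS libraries and astrocyte markers to 7.36 to 11.04 and 1.38 to 3, and their part was not tested. In ependymal cells, the ciliated lining of the ventricles, LPS inhibitors 1 had under 20 cells and did not enter. Of 56 genes tested there, 6 were called higher and 1 lower (background 12.6% and 12.5% of 5985 genes), and library totals gave 2 and 5. Mrps18b rose from 18.2, 24.9, 30.3 and 27.3 CPM to 60.6, 82.4 and 73.4 CPM in the 3 LPS libraries (log2 fold change 1.53 ± 0.46, adjusted p = 0.0154). Mrps6 rose from 141, 231, 257 and 212 CPM to 525, 272 and 349 CPM (log2 fold change 0.84 ± 0.25, adjusted p = 0.013), the reverse of mural cells, again with the groups apart. Mrpl10, Mrpl57, Mrps17 and Mrpl52 rose by 1.02 ± 0.35, 0.98 ± 0.30, 0.97 ± 0.26 and 0.75 ± 0.25, and Mrpl23 was called lower at -0.99 ± 0.29. Astrocyte markers in ependymal cells summed to 25.7 to 32.5 per 10000 UMIs in saline and 44.9 to 64.98 in LPS libraries, with their part not tested. The Mrps6 fall in mural cells lost its call without saline DMSO 1, saline inhibitors 1 or LPS DMSO 1 (adjusted p 0.0683 to 0.112), and its rise in ependymal cells without saline DMSO 1 or LPS DMSO 1 (adjusted p 0.0562 and 0.135). Of the named calls, 0 of 4 in mural cells and 0 of 7 in ependymal cells held under every alternative run.

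**Figure D4:**
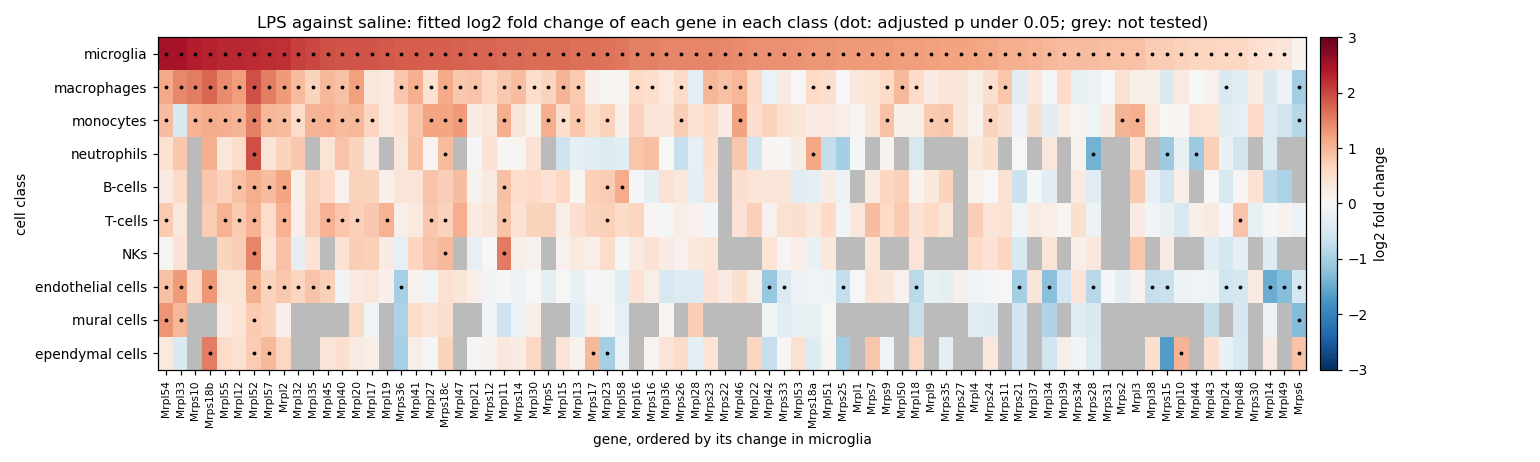
Log2 fold change of LPS against saline (colour) for the 78 genes, ordered by their change in microglia, in the 10 classes tested, with a dot where adjusted p was under 0.05 and grey where a gene was not tested. Dots cover 77 genes in microglia, 41 in macrophages and 31 in monocytes, and 6 in neutrophils. Cells per library differed between classes, at 8322 to 13582 in microglia and 72 to 492 in neutrophils. Numbers of dots therefore cannot be compared directly between classes.

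Across the 10 classes, which come from the same 8 libraries and so are not independent of each other, 37 of the 78 genes passed the filter on low counts in every class and each gene passed in at least 4. Over all classes 660 tests of members were made, of which 278 (42.1%) had an unadjusted p under 0.05, where 47.7% of the tests of all genes did. Of the 660, 214 (32.4%) were called, where 39.0% of the 83768 tests of all genes were, and DESeq2 called 176. The gene called in the same direction most often was Mrpl52, higher in all 10 classes, with log2 fold changes from 0.75 in ependymal cells to 2.24 in microglia. In ependymal cells its libraries overlapped, at 132, 183, 151 and 215 CPM in saline and 283, 157 and 409 CPM in LPS libraries, and in mural cells they did not, at 202, 312, 291 and 329 and 460.3, 361, 388 and 639 CPM. In endothelial cells Mrpl52 measured 122, 147, 126 and 167 CPM in saline and 215, 314, 300.2 and 352 CPM in LPS libraries. The LPS libraries were thus the higher in 9 of 10 classes without overlap. Free RNA itself held 38.9 to 46.2 UMIs of the 78 genes per 10000 in saline and 57.5 to 67.3 in LPS libraries. It was estimated at 8.72% to 12.4% of the UMIs of LPS neutrophils and 2.78% to 4.02% of those of LPS NKs. With LPS, Mrpl52 averaged 826 CPM in microglia and 119 CPM in neutrophils. Apart from the alternative that subtracts free RNA, its part in the rises outside microglia was not tested. With any 1 library left out Mrpl52 kept its call in 8 classes, and it lost it in mural cells (highest adjusted p 0.116, without LPS inhibitors 2) and in ependymal cells (0.505, without LPS inhibitors 2). Mrpl2, Mrpl11, Mrpl54, Mrpl57 and Mrps18c were called higher in 6 classes each. How many of all genes were called higher in as many classes was not counted, so these numbers of classes have no background. In single classes 8.27% (B-cells) to 29.2% (microglia) of all genes were called higher. Mrps6 was called lower in macrophages, monocytes, endothelial cells and mural cells, higher in ependymal cells and neither in microglia.

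**Figure D5:**
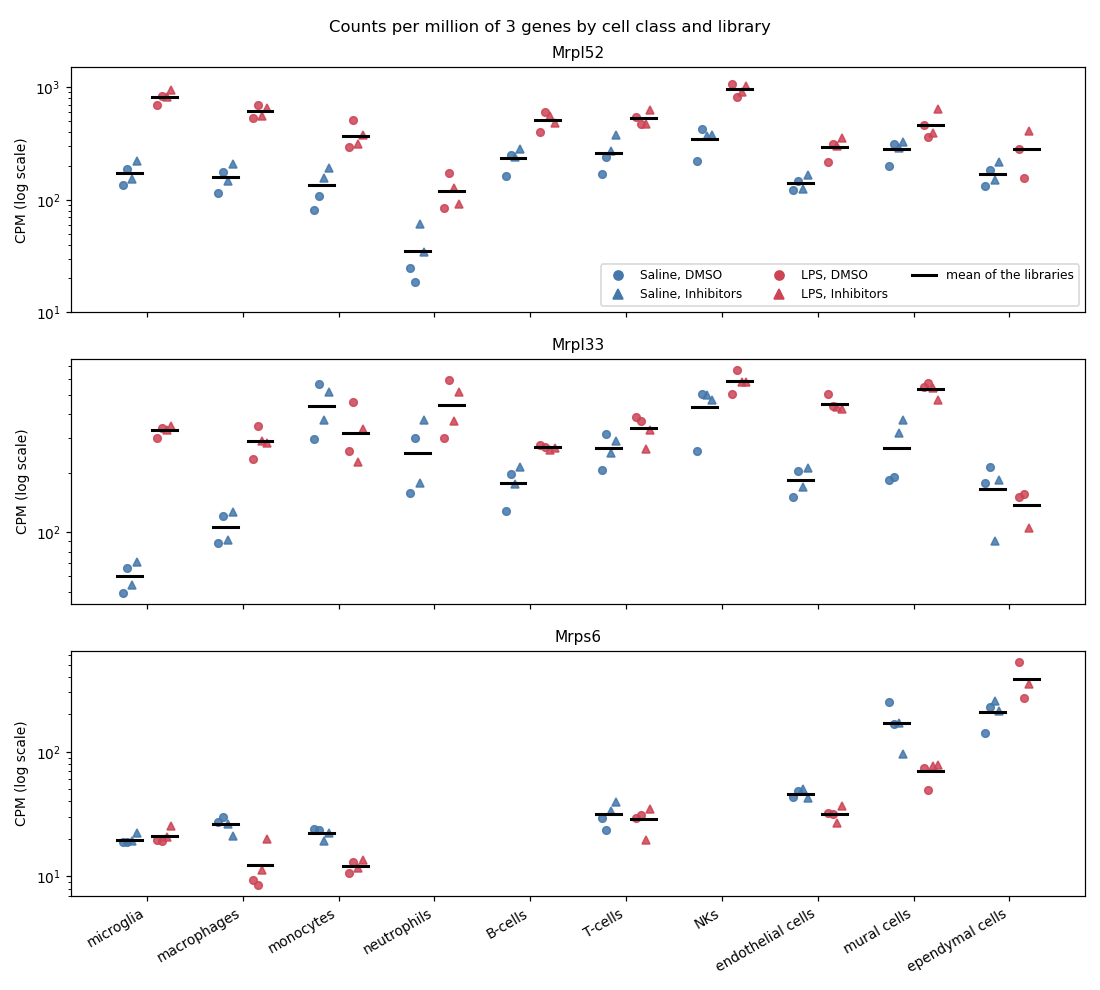
CPM on a log axis in each library for Mrpl52, Mrpl33 and Mrps6 in the classes where each was tested (blue, saline, red, LPS, circles, DMSO, triangles, inhibitors). LPS libraries of Mrpl52 lie above saline in every class but ependymal cells, where they overlap. Those of Mrpl33 lie above in microglia and overlap in monocytes. Those of Mrps6 lie below in macrophages, monocytes, endothelial and mural cells and above in ependymal cells.

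The choice of DMSO or inhibitors during dissociation moved none of the members past the threshold in any class. Over 660 tests in 10 classes 0 were called, 22 (3.33%) had an unadjusted p under 0.05, where 3.82% of all tests did, and DESeq2 called 0. Of all genes, 0.383% were called higher and 0.00% lower with DMSO in microglia, 0.538% and 0.0102% in macrophages, 0.0505% and 0.00% in monocytes and 0.128% and 0.00% in neutrophils. The shares were 0.173% and 0.0386% in B-cells, 0.173% and 0.0157% in T-cells and 0.0313% and 0.00% in NKs, and 0.0191% and 0.00% in endothelial cells, 0.335% and 0.149% in mural cells and 0.100% and 0.0334% in ependymal cells. In microglia the members' log2 difference of DMSO from inhibitors had a median of -0.13 and a range of -0.29 to 0.10, with SEs between 0.09 and 0.19. In monocytes the median was 0.26 (range -0.27 to 0.66), in neutrophils 0.25 and in macrophages -0.05. The lowest adjusted p of any member was 0.697, so that no difference was detected with 4 libraries on each side, which does not show that the members were alike. Nor did the LPS change of any member differ between DMSO and inhibitor libraries at the threshold: of 696 interaction tests 0 were called, 14 (2.01%) had an unadjusted p under 0.05 against 3.43% of all tests, DESeq2 called 0 and the lowest adjusted p was 0.832. Of all genes, that test called 0.0181% higher and 0.00452% lower in microglia, 0.0238% lower in monocytes, 0.0331% in B-cells, 0.00912% in endothelial cells and 0.0817% in ependymal cells, and 0.00% in every other class and direction.

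Genes that work with the mitoribosome were listed by role and counted in the same tests, in which 29.2% of all genes were called higher and 33.7% lower in microglia, 24.3% and 24.8% in macrophages and 15.1% and 15.2% in monocytes. The 5 mitoribosomal proteins with other names were all called higher in microglia (median log2 fold change 1.46), led by Dap3, a small-subunit GTP-binding protein, at 2.10 ± 0.11. Of 24 genes of mitoribosome assembly and rRNA modification, 18 were called higher and 2 lower in microglia (median 0.58), among them Rpusd3 at 1.87 ± 0.20 and the helicase Ddx28 at 1.83 ± 0.15. Of 15 translation factors, 10 were higher and 3 lower (median 0.53, highest 2.25). Below the highest of them, the elongation factor genes Gfm1 and Tsfm rose by 1.69 ± 0.10 and 1.59 ± 0.14. Of 17 mitochondrial aminoacyl-tRNA synthetases 10 were higher and 1 lower (median 0.61), and of 11 genes of mitochondrial DNA transcription and maintenance 6 were higher and 3 lower (median 0.56). Of 8 nuclear regulators 4 were higher and 4 lower (median 0.08), and 2 rose by more than 2 on the log2 scale. The growth regulator Myc was the highest at 2.32 ± 0.11 and Yy1 the lowest at -0.65 ± 0.11. In macrophages the same lists gave 4 higher and 0 lower of 5, 3 and 2 of 17, 2 and 2 of 14, 1 and 0 of 12, 1 and 1 of 8, and 4 and 2 of 7, in the same order. In monocytes they gave 2 and 0 of 5, 1 and 1 of 21, 4 and 0 of 15, 1 and 1 of 16, 1 and 2 of 11, and 3 and 1 of 7.

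Other gene groups of protein synthesis and respiration set the members in context. Cytosolic ribosomal proteins were called higher for 83 of 83 genes tested in microglia (median log2 fold change 1.87), for 18 of 82 with 5 lower in macrophages (median 0.11) and for 2 of 82 with 3 lower in monocytes (median -0.21). The 78 mitochondrial ribosomal protein genes, at medians of 1.43, 0.53 and 0.47 in these 3 classes, thus sat below the cytosolic group in microglia and above it in the other two. Nuclear subunits of oxidative phosphorylation were called higher for 78 of 85 and lower for 3 in microglia (median 1.67), for 56 of 79 and 2 in macrophages (median 0.75) and for 25 of 80 and 2 in monocytes (median 0.52). In endothelial cells they were higher for 3 of 80 and lower for 20 (25%, median -0.16), near the background of 21.9% for calls lower. The background for calls higher was 29.2% in microglia, 24.3% in macrophages, 15.1% in monocytes and 20.7% in endothelial cells. The protein genes of mitochondrial DNA itself, whose messages the mitoribosome translates, were called higher for 12 of 13 in microglia (median 1.24) and for 1 of 12 in macrophages (median 0.10), and lower for 4 of 12 in monocytes (median -0.25) and 8 of 12 in endothelial cells (median -0.81). These differences between groups of genes were not tested.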

How the data were processed

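Gene by cell tables of UMI counts were deposited for 8 libraries; the authors made them with PIPseeker and STAR on GRCm39 and used Seurat 4 afterwards, per the study's methods and the labels. Replicate number and batch label coincide, so the numbers pair the samples; the labels do not say what a batch is. Same-numbered libraries deviated together with r of 0.15 to 0.78 in microglia over 6 pairs, 0.11 to 0.60 in macrophages, 0.19 to 0.60 in monocytes, 0.22 to 0.66 in endothelial cells, -0.24 to 0.11 in NKs and -0.11 to 0.14 in mural cells. Cells were kept at 800 to 44999 UMIs, 250 to 6499 genes and under 5% mitochondrial UMIs. The authors' further limit on complexity and their removal of artificially activated clusters were not applied. Classes were set by 5 to 12 marker genes each, with UMIs compared to those expected from free RNA (barcodes with 1 to 99 UMIs). The scoring rule was set after the data were seen. The study speaks of 8 mouse brains, as many as libraries, while the labels tie no library to an animal, and p-values measure the spread between libraries.

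The deposited counts were summed per library and class and tested with edgeR 4.0.16 (R 4.3.3, filterByExpr, TMM, quasi-likelihood, terms for in vivo and ex vivo treatment). DESeq2 1.42.0 was an alternative. SEs are the log2 fold change over the square root of F. Other scalings, filters, gates, subtraction of free RNA, the batch as a block, single ex vivo treatments and each library left out were the alternatives. Of the alternatives, calls over all genes were counted for DESeq2 only. Library totals and leaving out libraries for the summed share were added after the data were seen. The fits were also run on simulated counts with the same spread for every gene and few changed genes, as many raised as lowered. That setting differs from the microglial data, so it does not test the scaling there, and no result rests on it. Named genes were up to 12 called rises and falls of greatest size in microglia, up to 6 in each other class or contrast, those called in most classes, Mrps18a, Mrps18b, Mrps18c, Mrps30 and Mrps36, and up to 3 of each partner list; Slc5a3 and, in microglia, Mrpl14, Mrpl49 and Mrps6 were chosen after their values were seen. The members and lists were chosen with earlier results of these data known. Promoter windows came from RefSeq on GRCm38.p6 and exon overlaps and lengths from GENCODE M21 on GRCm38, which differ in build from the counts and were joined by gene symbol and identifier.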

Additional observations from a re-analysis of the deposited data

Results flagged for a closer look

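In 219 sets of 4 libraries, 1 library stood apart from the other 3 in 9 (4.11%), by Dixon's ratio above 0.829, where chance gives about 5%. In microglia the summed share of the 78 genes was 56.6 per 10000 UMIs in LPS DMSO 1 and 64.4 to 64.6 in the other LPS libraries. LPS inhibitors 2 was the highest for Mrpl35 in microglia (103 CPM against 70.2 to 74.4) and for Mrpl45 in microglia (99.6 CPM against 71.2 to 75.3). In macrophages Mrps10 was at 11.2 CPM in saline DMSO 1 and 9.18 to 9.48 in the other saline libraries. In monocytes saline DMSO 2 was apart for Mrpl47 (24.3 CPM against 9.81 to 11.1) and for Mrpl46 (36.5 CPM against 22.8 to 23.9). Mrps18a in NKs was at 114 CPM in LPS inhibitors 1 against 37.3 to 48.1. Mrpl33 in endothelial cells was at 506 CPM in LPS DMSO 1 against 424 to 438, and Mrps6 in mural cells at 49.2 CPM in LPS DMSO 2 against 74.1 to 78.7.

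The LPS change differed from that in microglia, by the test of the difference itself, for 34 genes in macrophages, 47 in monocytes and 36 in neutrophils. Each had a lower signed change than in microglia, which can be a smaller rise or a fall. In macrophages the 6 greatest differences on the log2 scale were those of Mrpl28 (-1.36), Mrpl23 (-1.25), Mrpl17 (-1.18), Mrpl58 (-1.17), Mrpl42 (-1.17) and Mrpl19 (-1.16). In monocytes they were those of Mrpl33 (-2.60), Mrpl54 (-1.23), Mrpl30 (-1.23), Mrpl19 (-1.21), Mrpl21 (-1.16) and Mrpl32 (-1.15). In neutrophils they were those of Mrps25 (-2.03), Mrps22 (-1.94), Mrps10 (-1.93), Mrpl15 (-1.84), Mrps28 (-1.78) and Mrpl51 (-1.73), of which Mrps22 and Mrps10 did not pass the filter on low counts in neutrophils and entered the fit through the other classes.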

How the results depend on the processing

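In microglia the count of 77 called genes lay between 75 and 77 with each library left out in turn and moved by less than 1.5 times under every alternative run, and 15 of the 18 calls there that the text names held throughout. With library totals in place of TMM, Mrpl49 in microglia turned to -0.38 and Mrpl14 to -0.30, Mrps30 to -0.25, and Mrps6, not called otherwise, to -0.66. Mrpl48, Mrpl24, Mrpl43, Mrpl44, Mrpl10 and Mrps15 turned below 0 as well, without a call. Mrps30 was at 0.29 (adjusted p = 0.173) with DMSO libraries only, and the calls of Mrpl14 and Mrpl49 were lost in 10 and 8 further alternatives. With DMSO libraries only, the calls were 20 in macrophages (41 in all libraries), 3 in monocytes (31), 9 in endothelial cells (24), 1 in B-cells (7), 1 in T-cells (14), 2 in mural cells (4) and 0 in NKs (3) and ependymal cells (7). With inhibitor libraries only they were 14 in endothelial cells, 3 in neutrophils (6), 2 in B-cells, 4 in T-cells and 1 in mural cells. These fits rest on fewer libraries. Calls over all genes were not counted for them or for the other alternatives but DESeq2, so these counts have no background. A change in such a count is therefore not a result about the members. DESeq2 called 3 in neutrophils, 4 in B-cells, 3 in T-cells, 1 in mural cells and 3 in ependymal cells. Of all genes tested it called, in either direction, 11971 of 21132 in microglia, 4147 of 9850 in macrophages, 3584 of 11877 in monocytes and 1456 of 7047 in neutrophils. In endothelial, mural and ependymal cells it called 3828 of 10448, 470 of 2687 and 1003 of 5985. Subtracting free RNA gave 3 in neutrophils, 4 in B-cells, 5 in T-cells and 2 in mural cells. No filter on low counts, which tests more genes, gave 1 in B-cells, 5 in T-cells, 2 in mural cells and 3 in ependymal cells. Library totals gave 4 in B-cells, 1 in T-cells and 25 for the LPS change in monocytes against microglia (47), and upper-quartile scaling gave 8 in T-cells. A minimum of 1500 UMIs gave 3 in neutrophils and 5 in NKs, and a mitochondrial limit of 10% gave 5 in NKs and 10 in mural cells, 8 of them lower. Beyond what each setting's construction shows, the cause was not tested. Leaving out each library in turn gave 33 to 42 calls in macrophages, 21 to 46 in monocytes, 3 to 8 in neutrophils, 2 to 8 in B-cells, 1 to 14 in T-cells, 2 to 5 in NKs, 16 to 21 in endothelial cells, 1 to 4 in mural cells, 1 to 7 in ependymal cells and 0 for the ex vivo treatment and the interaction. Counts moved by over 1.5 times without saline DMSO 1 (neutrophils 3, B-cells 4, T-cells 8, NKs 5), saline DMSO 2 (LPS change in neutrophils against microglia 22), saline inhibitors 1 (B-cells 2, T-cells 1, mural cells 1), LPS DMSO 1 (B-cells 2, T-cells 2, mural cells 1, ependymal cells 3), LPS DMSO 2 (B-cells 2, T-cells 9), LPS inhibitors 1 (neutrophils 3) and LPS inhibitors 2 (neutrophils 3, B-cells 2, T-cells 2, mural cells 2, ependymal cells 1). The LPS change against microglia ranged over 27 to 49 genes in macrophages, 43 to 57 in monocytes and 22 to 48 in neutrophils, and the level in saline over 15 to 16, 25 to 35 and 35 to 41. The difference of the summed share ranged over 25.4 to 28.4 per 10000 in microglia, 6.04 to 8.68 in macrophages, 8.29 to 17.4 in monocytes, -2.83 to 0.748 in neutrophils, 4.73 to 10.4 in B-cells, 7.80 to 11.2 in T-cells, 15.5 to 19.9 in NKs, -8.51 to -4.71 in endothelial cells, -4.51 to 0.557 in mural cells and -2.08 to 1.79 in ependymal cells. With the replicate number as a block the calls were 10 in neutrophils (6 without the block), and among named genes Mrps30 was gained in monocytes (0.58, adjusted p = 0.0471), Mrps18c in B-cells (0.77, adjusted p = 0.0270) and endothelial cells (0.47, adjusted p = 0.0109), and Mrpl54 was lost in mural cells (1.29, adjusted p = 0.0506). The block changed no other call of a named gene. Neutrophils, B-cells, T-cells, NKs, mural cells and ependymal cells had under 100 cells in a library, which limits what could be seen there. Members that did not pass the filter on low counts in a class have no test in it.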
